A study of Mus musculus with 12 samples.

Results

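Immunoglobulin transcripts were followed by bulk RNA-seq of epithelial cells isolated from mouse jejunum. The set comprised the variable (V), joining (J), diversity (D) and constant segments of the heavy, kappa and lambda loci and the J chain gene Jchain. It was taken by symbol from a table of RSEM transcript abundances (TPM, scaled per transcript length and to 1 total in every library), as rows starting with Ighv, Igkv, Iglv, Igkj, Ighj, Igkc, Iglc, Igha, Ighg or Ighd, or equal to Ighm or Jchain. Of 55421 rows 390 matched by name, and 125 of these lay above 0 TPM in at least 3 of 12 libraries and are the members described here. They were 62 heavy V, 48 kappa V and 3 lambda V segments, 7 heavy, 1 kappa and 3 lambda constant genes, and Jchain. A further 206 matching rows were at 0 in every library and 59 were above 0 in 1 or 2 libraries. None of the 20 D rows, 4 heavy J rows and 5 kappa J rows was above 0. The 19 rows just inside the detection limit had a median highest value of 0.35 TPM, and the 27 rows just outside it 0.34 TPM.

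The groups were Fzd5KO at day 3, Ctrl at day 3, Fzd5KO at day 1 and Ctrl at day 1, with 3 libraries each. Fzd5KO denotes a knockout of Fzd5, the gene for the Wnt receptor Frizzled 5. Which part of the gene was removed, in which cells, and the event from which days were counted have no entry among the sources used, nor have the strain and age. Whether the replicates were separate animals is not stated, so the p-values reflect the spread among these libraries alone, and that spread may be technical. TPM keeps no sequencing depth, so a value of 0 means only that a gene was listed at 0. Fzd5 itself was lower but present in the knockout, at 38.6 ± 0.969 TPM against 64.8 ± 3.95 TPM in Ctrl at day 3, and at 32.7 ± 0.694 TPM against 46.6 ± 2.94 TPM in Ctrl at day 1 (mean ± SD, n = 3). Ctrl day 1 replicate 1 stood apart in the number of genes above 0, 24467 against 21506 to 22613 in the other libraries. The epithelial markers Epcam, Cdh1, Krt8, Krt18, Krt19 and Vil1 summed to between 4429 and 6485 TPM in every library.

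B lineage cells make an antibody heavy chain by joining a V, a D and a J segment upstream of a constant gene, and a light chain by joining a V and a J segment at the kappa or lambda locus. The constant gene in use sets the isotype, and IgA is the main isotype that plasma cells beneath the gut epithelium secrete. The J chain links IgA into dimers and IgM into pentamers, and the polymeric immunoglobulin receptor, encoded by Pigr in epithelial cells, carries them into the lumen. Epithelial cells do not rearrange these loci.

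The V segments are told apart by short differences. Shown are the last 60 bases of the reference sequence of the 7 segments that the V results turn on (GENCODE release M21, GRCm38, 5′ to 3′ on the coding strand), with the codon of the conserved cysteine before the third complementarity-determining region in capitals.
Igkv6-15: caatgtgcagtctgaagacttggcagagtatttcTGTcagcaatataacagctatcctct
Igkv6-17: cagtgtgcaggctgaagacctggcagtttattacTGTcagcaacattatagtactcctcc
Igkv5-43: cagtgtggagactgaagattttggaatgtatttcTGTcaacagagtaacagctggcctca
Igkv5-39: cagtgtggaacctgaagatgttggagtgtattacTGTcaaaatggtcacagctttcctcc
Ighv1-9: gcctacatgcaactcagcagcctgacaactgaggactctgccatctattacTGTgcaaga
Ighv1-81: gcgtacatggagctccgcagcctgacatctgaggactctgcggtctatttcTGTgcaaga
Ighv1-26: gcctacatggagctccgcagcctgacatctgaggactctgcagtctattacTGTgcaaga
In the germline, 23 bases follow that codon in the kappa segments and 6 in the heavy segments. The kappa segments lie on chromosome 6, Igkv6-15 at chr6:70406469-70406992 (minus strand), Igkv6-17 at chr6:70371439-70371993 (plus), Igkv5-43 at chr6:69823355-69823943 (minus) and Igkv5-39 at chr6:69900424-69900977 (minus). The heavy segments lie on the minus strand of chromosome 12, Ighv1-9 at chr12:114583569-114584002, Ighv1-81 at chr12:115920279-115920712 and Ighv1-26 at chr12:114788372-114788805. Igkv6-15 and Igkv6-17 were identical at 91.0% of aligned bases, Igkv5-39 and Igkv5-43 at 91.6%, and Ighv1-9 and Ighv1-81 at 88.0%. Of the 113 V members, 74 had another row in the table with at least 95% identity, so reads may have been divided between such rows and single V values are uncertain. Ighv1-9, Ighv1-81 and Igkv5-39 had no row that close, whereas Igkv5-43 was 98.4% identical to Igkv5-45, Ighv1-26 96.9% to Ighv1-18, Igkv6-17 95.5% to Igkv6-25, and Igkv6-15 95.1% to Igkv6-13.

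Summed immunoglobulin transcripts were about 4 times higher in the knockout at day 3 and lower than in Ctrl at day 1. The constant genes together reached 163 ± 15.7 TPM in Fzd5KO day 3 libraries (148 to 179), against 41.1 ± 7.04 TPM in Ctrl day 3 (35.6 to 49.1), a ratio of 3.97. At day 1 they reached 23.4 ± 1.30 TPM in Fzd5KO (22.4 to 24.9), against 41.4 ± 4.40 TPM in Ctrl (36.6 to 45.2), a ratio of 0.565. The V segments, over all matching rows, gave the same order, with 103 ± 11.8 TPM in Fzd5KO day 3 against 26.3 ± 5.69 TPM in Ctrl day 3, and 14.6 ± 2.13 TPM in Fzd5KO day 1 against 30.5 ± 0.422 TPM in Ctrl day 1. From this, constant transcripts were 6.98 times higher at day 3 than at day 1 in Fzd5KO and 0.994 times as high in Ctrl. Fzd5KO day 3 libraries overlapped with no other group in either sum, and the day 1 genotypes did not overlap. Without Ctrl day 1 replicate 1, the day 1 log2 ratios were −0.81 for constant and −1.07 for variable transcripts. Sums over members are descriptions and carry no test, and in bulk RNA fewer cells of a type and less RNA per cell cannot be told apart.

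**Figure D1:**
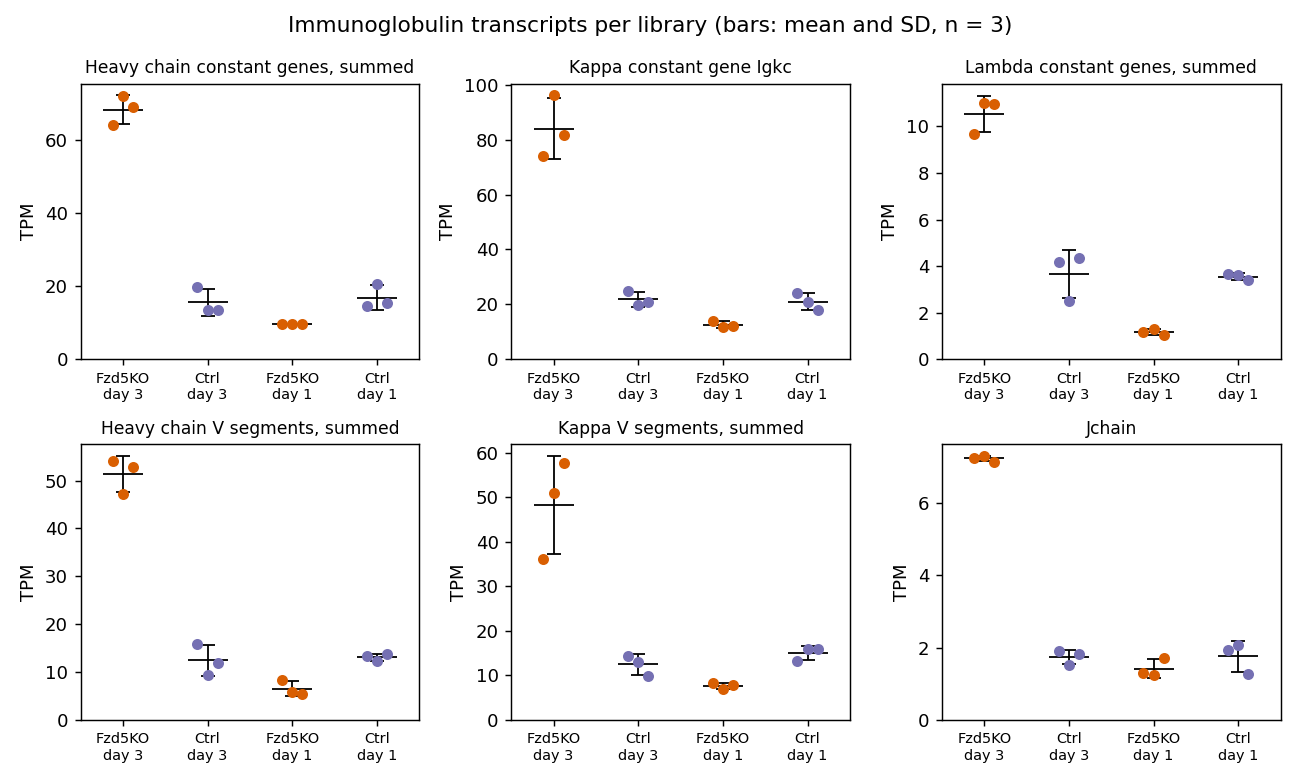
TPM per library for the summed heavy constant, lambda constant, heavy V and kappa V rows, for Igkc and for Jchain, with points for single libraries and bars for mean and SD (n = 3). Fzd5KO day 3 libraries lie above the other 9 in all 6 panels, and Fzd5KO day 1 libraries lie below Ctrl day 1 in all panels except Jchain.

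Across all genes the knockout differed widely, and the members' counts are read against that background. The 14510 genes that reached 1 TPM in 3 or more libraries were tested, with limma on log2(TPM + 1), Benjamini-Hochberg adjustment over all of them and calls at an adjusted p under 0.05. Changes below are on this log2 scale, with their SE, and understate the change of low genes. The filter let 31 members into the test: 11 heavy V, 10 kappa V and 1 lambda V segments, 4 heavy constant genes, all 4 detected light constant genes, and Jchain. Of these, 16 V segments, Ighd and Ighg2b would have failed the filter without the Fzd5KO day 3 libraries. They were selected in part by their level there, so these 18 are described without being counted as support, and the other 13 are counted apart.

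At day 3, all 13 members that passed the filter without the Fzd5KO day 3 libraries were called higher in Fzd5KO and 0 lower (limma, with 0 lower at an unadjusted p under 0.05 as well). They were Igkc, Igha, Ighm, Jchain, Iglc1, Iglc2, Iglc3, Ighv1-26, Ighv6-6, Igkv1-110, Igkv5-39, Igkv5-43 and Iglv1. Of the 14173 genes that passed in the same way 23.7% were called higher, and the median change was 1.15 for the 13 members and −0.15 for these genes. Over all 31 tested members 26 were called higher, where 24.3% of all tested genes were called higher and 38.5% lower, and this count includes the 18 members selected in part by their day 3 level. Without Fzd5KO day 3 replicate 1, 2 or 3, 16, 16 and 13 of the tested members were called higher, as fewer then passed the filter. With the same genes kept in the test, 25, 26 and 24 were called higher, and without replicate 3 Igkv8-28 was called lower (−0.92, limma adjusted p = 0.0038). With no filter on low values, 43 of the 125 members were called higher and 1, Ighv2-9, lower, where 16.0% of 25059 genes were called higher and 24.0% lower. The values of every Fzd5KO day 3 library exceeded those of every Ctrl day 3 library in 44 of 125 members, and in 0 members the reverse held, against 18.5% and 28.3% of all rows above 0 in at least 3 libraries.

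At day 1, 5 of 31 tested members were called lower in Fzd5KO, namely Igkc, Igha, Ighm, Iglc1 and Iglv1, and 1, Igkv5-39, was called higher. Igkv5-39 passed the filter only through the Fzd5KO day 1 libraries. Over all tested genes 22.8% were called lower and 2.13% higher, so without further scaling the share of all 31 members called lower was below the background. This reading depended on the scaling. With median-of-ratios scaling, 825 of 14467 genes were called lower and 1388 higher, and 3 of 30 members lower and 1 higher. With quantile normalization, 920 of 14510 genes and 2 of 31 members were called lower. Of the 31 members tested without further scaling, 18 were in the test only through the Fzd5KO day 3 libraries. Among the 13 members that passed the filter without those libraries, 5 were called lower and 1 higher, where 3306 and 308 of 14173 genes were. Of these 13, 9 were lower at an unadjusted p under 0.05 by limma. The median change of the 13 was −0.64, against −0.14 over those genes. For all 31 tested members the median change was −0.26, against −0.14 over all genes. With no filter, 6 of 125 members were called lower and 2 higher, where 11.1% and 1.21% of genes were. Ctrl day 1 libraries exceeded every Fzd5KO day 1 library in 23 members and the reverse held in 2, against 27.1% and 3.53% of rows. Leaving out Ctrl day 1 replicate 1 gave 8 calls in place of 6. Iglv1 was then no longer called (limma, adjusted p = 0.090), Ighd was called lower (limma, adjusted p = 0.044), and Igkc, Igha, Ighm, Iglc1 and Igkv5-39 were called as before. Leaving out Ctrl day 1 replicate 2 gave 3, and leaving out Ctrl day 3 replicate 3, through the shared spread, gave 9.

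The heavy constant genes set the isotype, and Igha, encoding the IgA constant region (chr12:113254830-113260236, minus strand), was the highest of them in every library. Igha reached 48.7, 52.3 and 50.3 TPM in Fzd5KO day 3 libraries and 15.3, 9.24 and 9.53 TPM in Ctrl day 3. It reached 6.84, 6.97 and 5.75 TPM in Fzd5KO day 1 and 9.41, 13.1 and 9.88 TPM in Ctrl day 1. The genotypes overlapped on neither day, and the direction differed between the days. The change was 2.09 ± 0.17 at day 3 (limma, adjusted p = 7.8e-07) and −0.64 ± 0.17 at day 1 (limma, adjusted p = 0.019). The day 1 call was lost with median-of-ratios scaling (adjusted p = 0.055), with quantile normalization (0.067), without Fzd5KO day 1 replicate 3 (0.065) and without Ctrl day 1 replicate 2 (0.073).

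Ighm (chr12:113418558-113422730, minus strand), the constant gene of IgM, had 9.56, 13.2 and 10.4 TPM in Fzd5KO day 3 and 2.95, 2.19 and 1.89 TPM in Ctrl day 3. At day 1 it had 2.39, 2.10 and 2.77 TPM in Fzd5KO and 3.75, 5.04 and 3.88 TPM in Ctrl. Its change was 1.85 ± 0.15 at day 3 (limma, adjusted p = 9e-07) and −0.61 ± 0.15 at day 1 (limma, adjusted p = 0.015). The day 1 call of Ighm was lost with quantile normalization (adjusted p = 0.059), without Fzd5KO day 1 replicate 2 (0.054) and without Ctrl day 1 replicate 2 (0.061). Ighm was the only tested member called lower at day 3 than at day 1 in Ctrl, by −0.65 ± 0.15 (limma, adjusted p = 0.0066), while Igha did not pass there, at 0.05 ± 0.17 (limma, adjusted p = 0.85). In the authors' TPM, Ighm made up 16.1% of heavy constant transcripts in Fzd5KO day 3 and 15.1% in Ctrl day 3, against 25.1% in both genotypes at day 1. Igha made up 73.7% in Fzd5KO day 3, 72.3% in Ctrl day 3, 67.6% in Fzd5KO day 1 and 64.2% in Ctrl day 1.

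Ighd, the constant gene of IgD, which naive B cells carry beside IgM on their surface, had 2.14, 3.26 and 3.70 TPM in Fzd5KO day 3 and 0.35, 0.51 and 0.43 TPM in Ctrl day 3. Ighd and Ighg2b reached the filter only with the Fzd5KO day 3 libraries. The change of Ighd at day 3 was 1.48 ± 0.17 (limma, adjusted p = 1.8e-05), and at day 1 it was −0.48 ± 0.17 (limma, adjusted p = 0.063). Ighg2b, an IgG constant gene, had 2.64, 2.77 and 2.79 TPM in Fzd5KO day 3 and 0.95, 1.03 and 1.36 TPM in Ctrl day 3. It was at 0.12, 0.21 and 0.31 TPM in Fzd5KO day 1 and 0.28, 0.46 and 0.36 TPM in Ctrl day 1. Unlike Igha and Igkc it was called higher at day 3 than at day 1 in both genotypes, by 1.62 ± 0.12 in Fzd5KO (limma, adjusted p = 6e-07) and by 0.63 ± 0.12 in Ctrl (limma, adjusted p = 0.0020). The genotype change of Ighg2b was 0.83 ± 0.12 at day 3 (limma, adjusted p = 8.9e-05). The other IgG genes, Ighg1, Ighg2c and Ighg3, stayed at or below 0.84 TPM in every library and were not tested, and the highest value of Ighg1 was in a Ctrl day 1 library.

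Kappa light chains have a single constant gene, Igkc (chr6:70726435-70726966, plus strand), and it was the highest member in every group. Igkc had 74.3, 96.3 and 81.9 TPM in Fzd5KO day 3 and 25.0, 19.8 and 20.9 TPM in Ctrl day 3. At day 1 it had 14.0, 11.8 and 11.9 TPM in Fzd5KO and 24.2, 20.95 and 17.8 TPM in Ctrl. The genotypes overlapped on neither day, with a change of 1.89 ± 0.13 at day 3 (limma, adjusted p = 1.8e-07) and −0.69 ± 0.13 at day 1 (limma, adjusted p = 0.0034).

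Lambda light chains use the constant genes Iglc1, Iglc2 and Iglc3 on chromosome 16, and in mice they are the minor light chain class. They summed to 10.6 ± 0.774 TPM in Fzd5KO day 3, 3.66 ± 1.03 in Ctrl day 3, 1.16 ± 0.14 in Fzd5KO day 1 and 3.54 ± 0.14 in Ctrl day 1. At day 1 the lambda sum in Fzd5KO was 0.328 of that in Ctrl, while Igkc was 0.600 of that in Ctrl. Lambda genes thus held 8.49 ± 1.25% of light chain constant TPM in Fzd5KO day 1 (7.63 to 9.92%) and 14.6 ± 1.43% in Ctrl day 1 (13.1 to 15.9%), with no overlap, and 11.2 ± 0.813% in Fzd5KO day 3 and 14.2 ± 3.03% in Ctrl day 3, which overlapped. These shares carry no test.

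Among the lambda genes, Iglc1 had 2.30, 3.32 and 4.81 TPM in Fzd5KO day 3 and 1.20, 1.55 and 1.38 TPM in Ctrl day 3. At day 1 it had 0.17, 0.29 and 0.17 TPM in Fzd5KO and 1.52, 2.0 and 1.15 TPM in Ctrl, the widest ratio among the tested constant genes on that day. Its change was 0.88 ± 0.19 at day 3 (limma, adjusted p = 0.0018) and −1.07 ± 0.19 at day 1 (limma, adjusted p = 0.0029). The V segment Iglv1, which recombines with the clusters of Iglc3 and Iglc1, had 1.84, 2.86 and 4.31 TPM in Fzd5KO day 3 and 1.68, 1.27 and 0.24 TPM in Ctrl day 3. At day 1 Iglv1 had 0.40, 0.52 and 0 TPM in Fzd5KO and 1.80, 1.84 and 1.10 TPM in Ctrl, with a change of −0.99 ± 0.30 (limma, adjusted p = 0.036). That call was lost under 9 alternatives, among them no filter, both scalings and leaving out any one of Fzd5KO day 1 replicates 1, 2 and 3 or Ctrl day 1 replicates 1 and 2, with adjusted p between 0.053 and 0.12. Iglc2 and Iglc3 were 95.1% identical to each other, so their split is uncertain. Both were called higher in Fzd5KO at day 3 (1.15 ± 0.24, limma adjusted p = 0.0013, and 1.04 ± 0.24, adjusted p = 0.0030). Neither passed at day 1.

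Jchain (chr5:88519809-88527891, minus strand), the only member that is not part of an immunoglobulin locus and needs no rearrangement, had 7.25, 7.31 and 7.15 TPM in Fzd5KO day 3 and 1.90, 1.52 and 1.81 TPM in Ctrl day 3. At day 1 it had 1.29, 1.23 and 1.72 TPM in Fzd5KO and 1.92, 2.07 and 1.27 TPM in Ctrl. The genotypes were separate at day 3 and overlapped at day 1. The change was 1.59 ± 0.13 at day 3 (limma, adjusted p = 7.3e-07) and −0.18 ± 0.13 at day 1 (limma, adjusted p = 0.30). An exact two-sided permutation test gave p = 0.1 at day 3, the smallest that 20 arrangements allow, p = 0.3 at day 1, and p = 0.09 over both days with labels exchanged within days. Its ratio to Igha was 0.144 ± 0.0046 in Fzd5KO day 3, 0.159 ± 0.0333 in Ctrl day 3, 0.221 ± 0.0676 in Fzd5KO day 1 and 0.163 ± 0.0381 in Ctrl day 1, overlapping between genotypes on both days. Jchain was also the only member with an entry among the RefSeq promoter sequences (mm10). The octamer ATGCAAAT, the motif of Oct factors known from V promoters, did not occur on either strand in its 300 bases, from 250 before the start to 50 after it, and 1.74% of all 32851 promoters of that length held it.

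**Figure D2:**
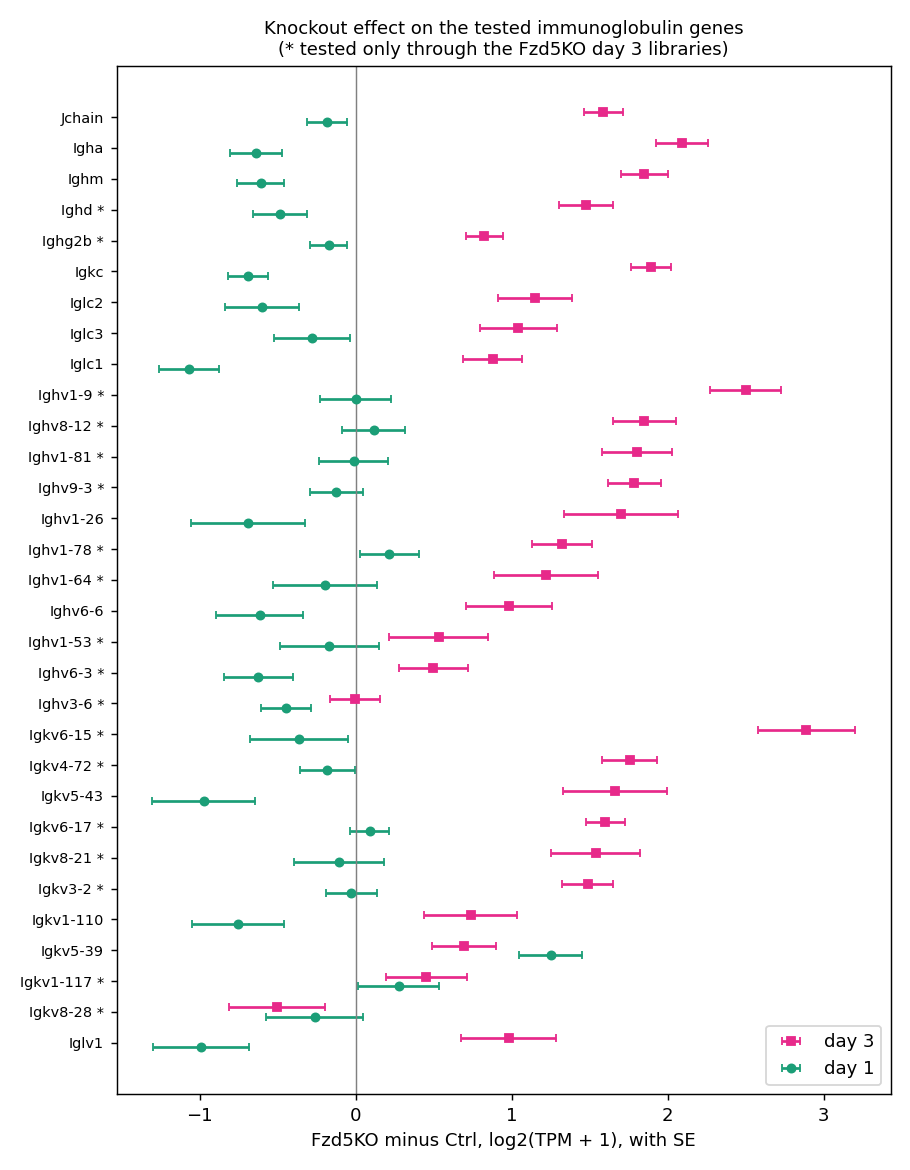
Fzd5KO minus Ctrl on the log2(TPM + 1) scale with SE for each of the 31 tested members at day 3 (squares) and day 1 (circles), ordered by class, with asterisks on the 18 members that passed the filter only through the Fzd5KO day 3 libraries. Igkc lies at 1.89 for day 3 and −0.69 for day 1, and Igkv5-39 is the only tested member with a larger positive value at day 1 than at day 3 (0.69 at day 3 and 1.25 at day 1).

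The higher V level in Fzd5KO at day 3 was spread over many segments. Of 113 V members, 66 had their highest group mean in Fzd5KO day 3, 14 in Ctrl day 3, 9 in Fzd5KO day 1 and 24 in Ctrl day 1. Every Fzd5KO day 3 library exceeded all 9 other libraries in 27 V members, where 13.1% of all rows above 0 in at least 3 libraries did so. A segment became a member by lying above 0 in any 3 libraries, so part of the 113 were selected through Fzd5KO day 3. The counts of highest group means are therefore a description, and their share over all rows was not computed. V rows above 0 numbered 96, 86 and 93 in Fzd5KO day 3 and 61, 63 and 44 in Ctrl day 3, and 49, 39 and 36 in Fzd5KO day 1 and 60, 62 and 60 in Ctrl day 1. This number follows the summed V level, and depth was unknown. The members Ighv1-84 (0.89, 0.91 and 2.14 TPM) and Ighv1-85 (0.53, 0.15 and 0.82 TPM), were above 0 only in Fzd5KO day 3.

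**Figure D3:**
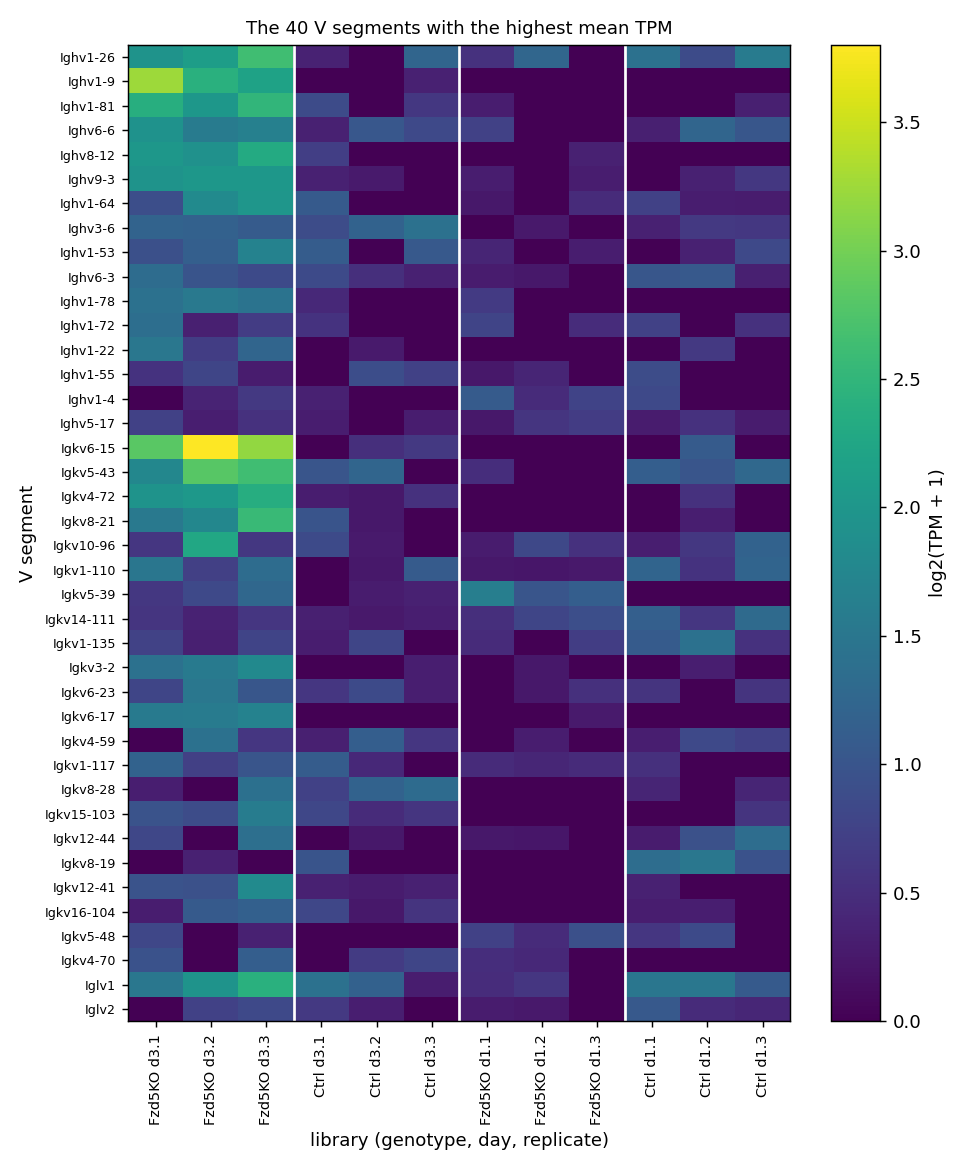
Values of log2(TPM + 1) in each library for the 40 V segments with the highest mean TPM, grouped by locus, with libraries ordered by genotype and day. Igkv6-15, Ighv1-9 and Igkv5-43 are brightest in the 3 Fzd5KO day 3 libraries, and Igkv5-39 is visible in the 3 Fzd5KO day 1 libraries and dark in Ctrl day 1.

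Among kappa V segments, Igkv6-15 had the highest level, with 6.13, 12.9 and 8.09 TPM in Fzd5KO day 3 and 0, 0.43 and 0.55 TPM in Ctrl day 3. At day 1 it was listed at 0 in all 3 Fzd5KO libraries and at 0, 1.12 and 0 TPM in Ctrl. It was the leading kappa V segment in all 3 Fzd5KO day 3 libraries, with a change of 2.89 ± 0.31 at day 3 (limma, adjusted p = 9.6e-06), and it passed the filter only through these libraries. The Igkv6 subgroup as a whole held 27.1% of kappa V TPM in Fzd5KO day 3, 12.3% in Ctrl day 3, 3.65% in Fzd5KO day 1 and 8.81% in Ctrl day 1, from group means.

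Igkv5-43 had 2.39, 6.06 and 5.24 TPM in Fzd5KO day 3 and 1.0, 1.35 and 0 TPM in Ctrl day 3, a change of 1.66 ± 0.33 (limma, adjusted p = 0.0011). At day 1 Igkv5-43 changed by −0.97 ± 0.33 and was not called (limma, adjusted p = 0.053), and its relative Igkv5-39 went the other way. Igkv5-39 had 2.08, 1.0 and 1.19 TPM in Fzd5KO day 1 and was listed at 0 in all 3 Ctrl day 1 libraries, a change of 1.25 ± 0.20 (limma, adjusted p = 0.0016). It reached 1 TPM in only 1 library outside Fzd5KO day 1, so the group where it was high brought it into the test. It was the leading kappa V segment in all 3 Fzd5KO day 1 libraries, although summed immunoglobulin was lowest there. At day 3 Igkv5-39 had 0.53, 0.79 and 1.40 TPM in Fzd5KO and 0, 0.22 and 0.27 TPM in Ctrl (0.69 ± 0.20, limma adjusted p = 0.011), and without Fzd5KO day 3 replicate 3 that call was lost (adjusted p = 0.051). The only other V member with every Fzd5KO day 1 value above every Ctrl day 1 value was Igkv4-90. The reverse pattern was seen for Igkv8-19, with 0 TPM in all 3 Fzd5KO day 1 libraries and 1.57, 1.83 and 0.95 TPM in Ctrl day 1 (−1.28 with no filter, limma adjusted p = 0.0076). Igkv4-90 and Igkv8-19 were named after their values were seen.

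Ighv1-9 was the leading heavy V segment in Fzd5KO day 3 replicates 1 and 2, and Ighv1-26 in replicate 3. Ighv1-9 had 8.5, 4.30 and 3.57 TPM in Fzd5KO day 3 and 0, 0 and 0.27 TPM in Ctrl day 3, and was listed at 0 in all 6 day 1 libraries. Ighv1-81 had 4.20, 3.04 and 4.67 TPM in Fzd5KO day 3 and 0.82, 0 and 0.54 TPM in Ctrl day 3. Both are among 9 tested segments that reached 1 TPM in no library outside Fzd5KO day 3, together with Ighv8-12, Ighv9-3, Ighv1-78, Igkv4-72, Igkv8-21, Igkv6-17 and Igkv3-2. Group means of these 9 lay between 1.77 and 5.46 TPM in Fzd5KO day 3 and at or below 0.453 TPM in each other group.

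Ighv1-26 did not need those libraries to pass the filter. It had 2.87, 3.34 and 5.22 TPM in Fzd5KO day 3 and 0.29, 0 and 1.35 TPM in Ctrl day 3, a change of 1.70 ± 0.37 (limma, adjusted p = 0.0018). At day 1 it had 0.46, 1.38 and 0 TPM in Fzd5KO and 1.67, 0.83 and 1.99 TPM in Ctrl, and the groups overlapped. From group means, the Ighv1 subgroup, the largest heavy V subgroup with 34 members, held 63.5% of heavy V TPM in Fzd5KO day 3 and 52.6% in Ctrl day 3. At day 1 it held 61.8% in Fzd5KO and 56.0% in Ctrl, and the shares of single libraries overlapped. In Ctrl day 3 it had 9.13, 3.12 and 7.33 TPM of 15.89, 9.4 and 11.91 TPM heavy V, so replicate 2 lowered that share most.

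Other V segments showed how far single values can be read. Igkv6-17 had 1.93, 1.98 and 2.20 TPM in Fzd5KO day 3 and was listed at 0 in all Ctrl libraries of both days, with 0, 0 and 0.21 TPM in Fzd5KO day 1. Ighv9-3 was similarly even, with 2.89, 3.04 and 3.02 TPM in Fzd5KO day 3 and 0.27, 0.21 and 0 TPM in Ctrl day 3. Igkv10-96, by contrast, owed its high mean to 1 library, with 0.51, 3.84 and 0.53 TPM in Fzd5KO day 3 and 0.80, 0.21 and 0 TPM in Ctrl day 3, and it was not tested. No V segment at 5 TPM or more had over 80% of its 12-library sum in a single library.

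Igkv4-72 had 2.88, 3.07 and 4.18 TPM in Fzd5KO day 3 and 0.23, 0.18 and 0.46 TPM in Ctrl day 3, and Igkv8-21 had 1.89, 2.38 and 4.94 TPM in Fzd5KO day 3 and 0.99, 0.19 and 0 TPM in Ctrl day 3. Neither was above 0 in Fzd5KO day 1. Ighv6-6 had 2.83, 1.98 and 2.15 TPM in Fzd5KO day 3 and 0.27, 1.04 and 0.79 TPM in Ctrl day 3, a change of 0.98 ± 0.28 (limma, adjusted p = 0.0089, and 0.081 with a pseudocount of 0.1). The Igkv8 subgroup held 10.0% of kappa V TPM in Fzd5KO day 3 and 26.2% in Ctrl day 3, the opposite order to Igkv6, and 4.47% in Fzd5KO day 1 and 13.7% in Ctrl day 1. The 2 lambda segments beside Iglv1 were low, Iglv2 at or below 1.09 TPM and Iglv3 at or below 0.71 TPM in every library, each with its highest value in Ctrl day 1 replicate 1.

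Not every segment was called. At day 3 the tested members that did not pass, each in the test only through the Fzd5KO day 3 libraries, were Ighv3-6 (−0.00 ± 0.16), Ighv1-53 (0.53 ± 0.32), Ighv6-3 (0.50 ± 0.22), Igkv1-117 (0.45 ± 0.26) and Igkv8-28 (−0.51 ± 0.31). Ighv3-6 had 1.32, 1.26 and 1.14 TPM in Fzd5KO day 3 and 0.85, 1.28 and 1.68 TPM in Ctrl day 3. It was called higher at day 3 than at day 1 in both genotypes, by 1.07 ± 0.16 in Fzd5KO (limma, adjusted p = 0.00017) and 0.63 ± 0.16 in Ctrl (limma, adjusted p = 0.0095, and 0.055 with a pseudocount of 0.1).

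V segment profiles were more alike within 3 of the 4 groups than between groups, and pairs of Ctrl day 3 libraries overlapped with pairs from different groups. For each pair of libraries, the shared part of the profile was the sum, over heavy and kappa V rows, of the smaller of the 2 shares of V TPM. It lay between 64.1 and 67.3% among Fzd5KO day 3 libraries, 38.6 and 43.1% in Ctrl day 3, 42.3 and 43.7% in Fzd5KO day 1, and 44.3 and 49.9% in Ctrl day 1. The 54 pairs from different groups shared 13.8 to 41.4%, with a median of 31.4%. The 18 pairs of a Fzd5KO day 1 library with a day 3 library had the lowest medians, 25.5% with Fzd5KO day 3 and 26.5% with Ctrl day 3. Fzd5KO day 3 libraries also had the highest V sums, and how far level sets the overlap was not tested. The Pearson correlation of log2(TPM + 1) over the 113 V members was 0.725 to 0.763 among Fzd5KO day 3 libraries, 0.285 to 0.558 within the other groups and −0.081 to 0.351 between groups, as a description across segments that are not independent.

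**Figure D4:**
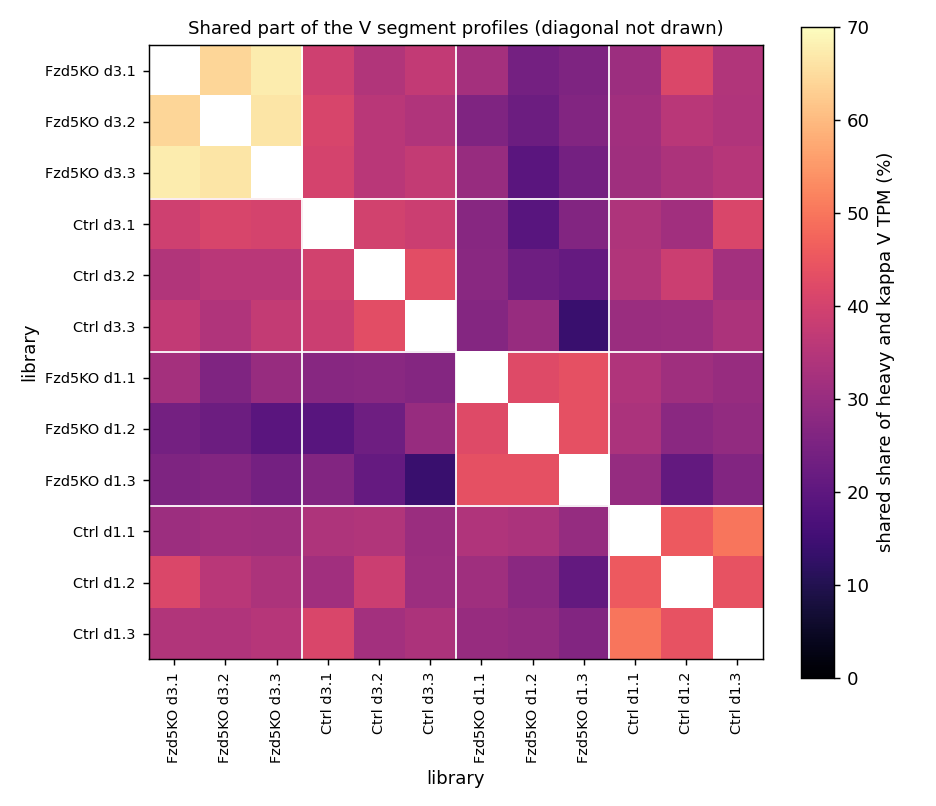
Shared part of the V segment profile, in percent of heavy and kappa V TPM, for each pair of the 12 libraries, with white lines between groups. The block of 3 Fzd5KO day 3 libraries stands out at 64.1 to 67.3%, and pairs from different groups lie between 13.8 and 41.4%.

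Over time, 12 of the 13 members that passed the filter without the Fzd5KO day 3 libraries were called higher at day 3 than at day 1 in Fzd5KO, where 34.0% of the genes that passed in that way were. Of all 31 tested members 28 were called higher and 0 lower, also at an unadjusted p under 0.05 by limma, where 34.4% of genes were called higher and 10.5% lower. Every Fzd5KO day 3 value exceeded every Fzd5KO day 1 value in 52 of 125 members, against 26.5% of all rows. Igkc differed by 2.64 ± 0.13 (limma, adjusted p = 2.5e-08) and Igha by 2.78 ± 0.17 (limma, adjusted p = 1.3e-07) between day 3 and day 1 in Fzd5KO. In Ctrl, 2 members (Ighg2b and Ighv3-6) were called higher at day 3 and 1 (Ighm) lower, against 25.0% and 11.0% of genes. Without Ctrl day 3 replicate 3 the 3 calls became 5. The change of Igkc in Ctrl was 0.06 ± 0.13 (limma, adjusted p = 0.73). The difference between the genotype effects at the 2 days was called for 12 of those 13 members, all with the higher effect at day 3. Of the genes that passed in that way 24.8% were. It was called for 26 of all 31, where 25.3% of genes were called in that direction and 19.1% in the other. At least Iglv1, Ighv1-26 and Ighv6-6 were among the 13 only with the help of the Ctrl day 1 libraries, which enter this difference. Averaged over both days, 5 of those 13 members were called higher in Fzd5KO, where 17.2% of the genes that passed in that way were. They were Igkc, Igha, Ighm, Jchain and Igkv5-39. For Igkc, Igha and Ighm the effect was called lower at day 1 and higher at day 3, so the average over both days describes neither day. Igkv5-39 passed the filter only through the Fzd5KO day 1 libraries, which are part of this mean, so it is not counted as support. Of all 31, 17 were called higher and 0 lower, also at an unadjusted p under 0.05 by limma, with 17.6% of genes called higher and 41.3% lower. Scaling choices shifted the median of all genes by up to 0.15, and no called contrast of a named member changed direction under them.

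Most tested B cell markers were, like the immunoglobulins, higher in Fzd5KO at day 3. Of 15 listed genes 10 were tested, and at day 3 in Fzd5KO 9 were called higher and 1, Blnk, lower. Over all tested genes 24.3% were called higher and 38.5% lower. Cd79a, a signalling subunit of the B cell receptor, had 2.99, 2.49 and 3.40 TPM in Fzd5KO day 3 and 1.20, 0.68 and 0.54 TPM in Ctrl day 3 (1.14 ± 0.18, limma adjusted p = 0.00015). Its partner Cd79b had 4.01, 5.29 and 4.15 TPM in Fzd5KO day 3 and 1.35, 0.84 and 1.20 TPM in Ctrl day 3 (1.36 ± 0.12, limma adjusted p = 1.8e-06). Ms4a1, which encodes CD20, and Cd22, a receptor of mature B cells, changed by 1.33 ± 0.13 (limma, adjusted p = 4e-06) and 1.40 ± 0.17 (adjusted p = 2.4e-05). The median change of the tested list was 1.08, against −0.14 over all genes. At day 1 only Blnk passed, at −0.20 ± 0.07 (limma, adjusted p = 0.050, below the threshold before rounding), and Cd79a did not, at −0.41 ± 0.18 (adjusted p = 0.11). Blnk, an adaptor protein, was at 11.4 to 18.5 TPM in every library and made up much of the list's sum.

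The whole B cell list summed to 39.4 to 43.4 TPM in Fzd5KO day 3 and 23.2 to 27.4 TPM in Ctrl day 3, and to 17.0 to 18.9 TPM in Fzd5KO day 1 and 24.7 to 26.7 TPM in Ctrl day 1. Without Blnk, left out after its values were seen, it summed to 28.4 ± 1.86, 6.99 ± 1.79, 5.42 ± 0.61 and 10.8 ± 0.575 TPM in the same order. Constant immunoglobulin TPM per TPM of the whole list was 3.92 ± 0.298 in Fzd5KO day 3, 1.64 ± 0.177 in Ctrl day 3, 1.29 ± 0.0503 in Fzd5KO day 1 and 1.62 ± 0.117 in Ctrl day 1, and the genotypes overlapped on neither day. Per TPM of the shortened list it was 5.75 ± 0.30 in Fzd5KO day 3, 5.98 ± 0.684 in Ctrl day 3, 4.34 ± 0.439 in Fzd5KO day 1 and 3.84 ± 0.215 in Ctrl day 1. The ratios to the shortened list overlapped between genotypes on both days, at day 1 with 3.98 to 4.83 in Fzd5KO and 3.59 to 3.99 in Ctrl. At day 1 the mean ratio was lower in Fzd5KO for the whole list and higher for the shortened list. In both genotypes the ratios to the shortened list were higher at day 3 than at day 1. Whether the genotypes separate thus depends on Blnk on both days.

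Plasma cell markers gave a mixed picture. The whole list summed to 236 to 254 TPM in Fzd5KO day 3 and 259 to 279.9 TPM in Ctrl day 3, and to 200.3 to 205 TPM in Fzd5KO day 1 and 243 to 258 TPM in Ctrl day 1. Without Xbp1, Sdc1 and Txndc5, left out after their values were seen, it summed to 9.30 to 10.3 TPM in Fzd5KO day 3 and 2.32 to 3.24 TPM in Ctrl day 3. Of 12 listed genes 7 were tested, and at day 3 in Fzd5KO 3 were called higher and 1 lower. At day 1 Txndc5, Xbp1, Sdc1 and Slamf7 were called lower and 0 higher (limma, with 1, Prdm1, higher at an unadjusted p under 0.05). Over all tested genes 24.3% were called higher and 38.5% lower at day 3, and 2.13% higher and 22.8% lower at day 1. Prdm1, the regulator that drives B cells to plasma cells and is also active in other cells such as T cells, had 3.87, 3.91 and 4.02 TPM in Fzd5KO day 3 and 0.79, 0.74 and 0.56 TPM in Ctrl day 3 (1.54 ± 0.11, limma adjusted p = 4.2e-07). Pou2af1, a coactivator of Oct factors at immunoglobulin promoters, changed by 0.89 ± 0.16 (limma, adjusted p = 0.00044) and Slamf7 by 0.80 ± 0.15 (limma, adjusted p = 0.00065). Txndc5, a chaperone of the secretory pathway, was called lower, by −0.46 ± 0.05 (limma, adjusted p = 1.5e-05). Xbp1, which expands the secretory machinery in plasma cells and in other secretory cells, was not called at day 3 (0.09 ± 0.04, adjusted p = 0.063) and was called lower at day 1 (−0.20 ± 0.04, limma adjusted p = 0.0054). Mzb1, a plasma cell chaperone, stayed under the filter with 0.70, 1.28 and 0.55 TPM in Fzd5KO day 3 and 0.69, 0.14 and 0.18 TPM in Ctrl day 3. Tnfrsf17 was listed at 0 in every library.

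Genes that carry IgA or guide its producers did not move as one. Of 13 listed 7 were tested, with Itgb7, Ccr9 and Ccl25 called higher and Pigr, Ccl28 and Tnfsf13 lower in Fzd5KO at day 3. At day 1 Tnfsf13b was called higher and Pigr, Ccl28 and Ccl25 lower. Over all tested genes 24.3% were called higher and 38.5% lower at day 3, and 2.13% higher and 22.8% lower at day 1. Pigr had 708, 766 and 736 TPM in Fzd5KO day 3 and 1073, 1060 and 1005 TPM in Ctrl day 3 (−0.51 ± 0.04, limma adjusted p = 5.8e-07), and was also called lower at day 1 (−0.41 ± 0.04, limma adjusted p = 5.4e-05). Thus the receptor that exports IgA was lower in Fzd5KO on both days, while Igha was higher at day 3 and lower at day 1. Ccl28, a chemokine that attracts IgA-secreting cells, was lower at day 3 by −1.39 ± 0.07 (limma, adjusted p = 2.1e-08). Ccl25, the small intestinal chemokine for cells bearing Ccr9, was higher by 0.38 ± 0.03 (limma, adjusted p = 1.2e-06), as was Itgb7, a subunit of the gut homing integrin, by 1.41 ± 0.27 (adjusted p = 0.00070).

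**Figure D5:**
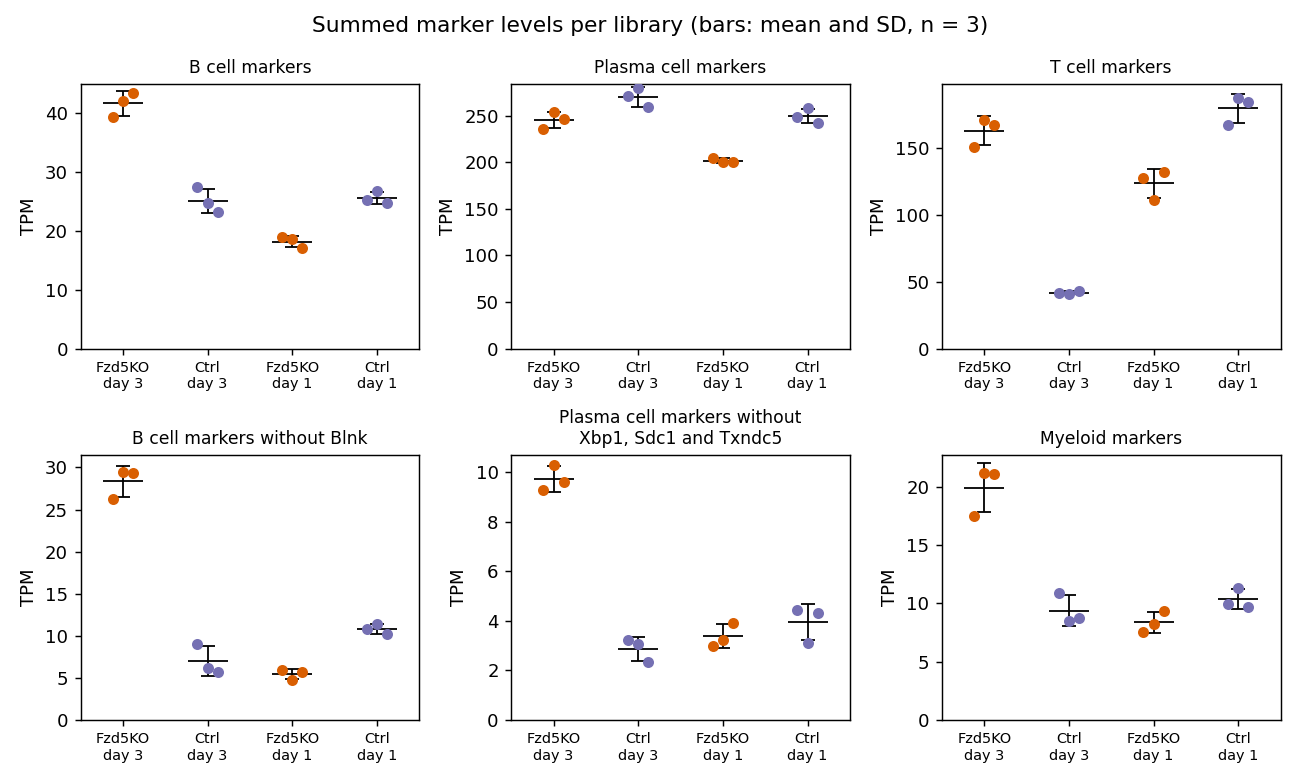
Summed TPM per library of the whole B cell, plasma cell, T cell and myeloid lists, of the B cell list without Blnk and of the plasma cell list without Xbp1, Sdc1 and Txndc5, with points for libraries and bars for mean and SD (n = 3). Both B cell sums, the myeloid sum and the shortened plasma cell sum are highest in Fzd5KO day 3, the whole plasma cell sum is highest in Ctrl day 3, and the T cell sum is lowest in Ctrl day 3, at 40.4 to 42.7 TPM.

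Markers of other cells also moved with genotype. Their calls stand beside 24.3% of all tested genes called higher and 38.5% lower at day 3, and 22.8% lower at day 1. All 7 tested T cell genes of 9 listed were called higher in Fzd5KO at day 3, and 3 (Cd3g, Gzma and Gzmb) were called lower at day 1. Here the T cell genes differed from the immunoglobulins in Ctrl, where all 7 were called lower at day 3 than at day 1, and in Fzd5KO, where only Gzma and Gzmb were called higher at day 3 than at day 1. Over all tested genes 11.0% were called lower over time in Ctrl and 34.4% higher over time in Fzd5KO. The T cell list summed to 150 to 171 TPM in Fzd5KO day 3 and 40.4 to 42.7 TPM in Ctrl day 3. At day 1 it summed to 111 to 131 TPM in Fzd5KO and 167 to 187 TPM in Ctrl. Of 5 tested myeloid genes, 3 (Csf1r, Itgax and Lyz2) were called higher at day 3, and the list summed to 17.5 to 21.2 TPM in Fzd5KO day 3 and 8.47 to 10.9 TPM in Ctrl day 3. None of 3 tested fibroblast genes was called at day 3 (limma, with 0 at an unadjusted p under 0.05). The endothelial gene Pecam1 was called higher, with a list sum of 1.88 to 2.06 TPM in Fzd5KO day 3 and 1.08 to 1.76 TPM in Ctrl day 3. Epithelial markers summed to 6332 to 6485 TPM in Fzd5KO day 3 and 4478 to 4648 TPM in Ctrl day 3, with 5 of 6 called higher and Krt18 lower. The part of these cell types in the immunoglobulin differences was not tested.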

How the data were processed

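The authors deposited 1 table of TPM values for 12 libraries, with 0 columns of other samples. Tools listed in the submitters' processing notes are STAR 2.7.3a, RSEM (no version) and bcl2fastq 2.18, with build mm10. Per the labels' protocols, an RNeasy kit was used for the RNA and a stranded TruSeq total RNA kit for the libraries. Annotation and strand setting are not given in the sources used. Every TPM column has the same sum, so depth and counting intervals are unknown, and levels are per length.

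Gene coordinates and V sequences were read from GENCODE M21 (GRCm38). The fit used limma 3.58.1 (R 4.3.3) on log2(TPM + 1), with means for 4 groups, an intensity trend and 6 contrasts, over the 14510 genes that reached 1 TPM in 3 or more libraries. The procedure was tested on simulated data. Fold changes are ratios of mean TPM. Figures used matplotlib 3.10.9.

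Named members were Jchain, all constant genes, the highest V segments (5 heavy, 5 kappa, 3 lambda) and the 20 called members with the smallest p, with exceptions stated. From each marker list, called genes (up to 4) and Pigr, Mzb1, Cd79a and Xbp1 were named. Any other named gene was picked with its values in view. The members and lists were chosen with earlier results of these data known. Alternatives were other pseudocounts, filters and scalings, the replicate block, only the groups compared, and each library left out.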

Additional observations from a re-analysis of the deposited data

Results flagged for a closer look

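The effect of the knockout differed between day 3 and day 1, by a test of the difference itself (limma on log2(TPM + 1), adjusted p under 0.05 over all tested genes), for 23 named members. The values are the day 3 effect minus the day 1 effect. Part of the named members were picked for their small p, so their number is no result. Among constant genes and Jchain the difference was 2.73 for Igha, 2.58 for Igkc, 2.46 for Ighm, 1.96 for Ighd, 1.95 for Iglc1, 1.77 for Jchain, 1.75 for Iglc2, 1.32 for Iglc3 and 0.998 for Ighg2b. Among kappa and lambda V segments it was 3.25 for Igkv6-15, 2.64 for Igkv5-43, 1.97 for Iglv1, 1.94 for Igkv4-72, 1.65 for Igkv8-21, 1.52 for Igkv3-2 and 1.51 for Igkv6-17. Among heavy V segments it was 2.5 for Ighv1-9, 2.39 for Ighv1-26, 1.91 for Ighv9-3, 1.81 for Ighv1-81, 1.74 for Ighv8-12, 1.60 for Ighv6-6 and 1.11 for Ighv1-78. Of these, Igkv6-15, Ighd, Ighg2b, Igkv4-72, Igkv8-21, Igkv3-2, Igkv6-17, Ighv1-9, Ighv9-3, Ighv1-81, Ighv8-12 and Ighv1-78 passed the filter only through the Fzd5KO day 3 libraries. Igkv5-39 differed in the other direction, by −0.56 ± 0.29, and was not called (adjusted p = 0.14).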

How the results depend on the processing

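Of 102 contrasts of named members, 89 kept their direction and their side of the threshold under every alternative run, and 0 of 1855 values turned direction. At day 1 the call of Iglv1 was lost under 9 alternatives, that of Igha under 4 and that of Ighm under 3 (adjusted p from 0.053 to 0.12), while Ighd became called under 4 and Iglc2 under 2 (adjusted p from 0.024 to 0.049). With no filter the counts of called members were 44 at day 3 (26 in the main analysis), 35 for the mean of both days (17), 41 for the difference between days (26), 50 for day 3 minus day 1 in Fzd5KO (28) and 9 in Ctrl (3). With at least 5 TPM, where only 5 members were tested, they were 3 at day 1, 5 at day 3, 5 for the mean, 5 for the difference, 5 over time in Fzd5KO and 1 in Ctrl. At day 1 (6 in the main analysis), a pseudocount of 0.1 gave 10 and quantile normalization 3. The log2 ratio of summed constant TPM at day 1 was −0.82, and −0.65 with median-of-ratios scaling.

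Leaving out each library in turn gave 3 to 9 calls at day 1, 13 to 26 at day 3, 8 to 18 for the mean, 16 to 26 for the difference, 16 to 28 over time in Fzd5KO and 3 to 5 in Ctrl. The lowest count at day 1 came without Ctrl day 1 replicate 2, and the lowest at day 3, for the mean, for the difference and over time in Fzd5KO without a Fzd5KO day 3 library, when fewer members passed the filter. With the same genes kept in the test, chosen after seeing the data, they were 25 to 27 at day 3, 17 to 20, 25 to 26 and 26 to 29. Without Ctrl day 3 replicate 3 the Ctrl time count was 5 and the day 1 count 9. Libraries with the same replicate number shared little deviation from their group means (correlations between −0.069 and 0.093), which does not settle whether they were paired. With the replicate block the Ctrl time count was 5, while the other 5 counts stayed within 1.5 times. The cause of these differences was not tested. Unknown depth limits what values near 0 show.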
